A study of Mus musculus with 16 samples.

Results

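The genes of oxidative phosphorylation were followed through 16 mouse melanoma biopsies, as the nuclear-encoded subunits of respiratory chain complexes I, III and IV and of the ATP synthase (complex V), together with the coactivator gene Ppargc1a. Members were all non-control probes whose gene name starts with Ndufa, Ndufb, Ndufc, Ndufs, Ndufv, Uqcr, Cox4i, Cox5, Cox6, Cox7, Cox8 or Atp5, plus Ppargc1a. This gave 132 of the 55681 probes of the array, which stand for 90 genes. Of these, 88 genes were tested among 21985 genes and transcripts. The other 2, Cox7b2 and Cox8c, which are known as testis isoforms of cytochrome c oxidase, were not well above background on any of the 16 arrays. Because the members were taken by name, they include 7 complex I assembly factors named Ndufaf (such as Ndufaf2), the pseudogene Atp5c1-ps, and Atp5s and Atp5sl, which are named for ATP synthase but are not core subunits. Members were also assigned to complexes by name. Tissue isoforms of complex IV, Ndufa4 with its paralog Ndufa4l2, and the supercomplex protein Cox7a2l were also kept apart from the core subunits, which numbered 69.

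The series title names BRAF inhibitors and acquired resistance, and the samples are labelled as melanoma. There were 4 untreated tumours, 4 tumours treated for 4 days, 4 treated for 60 days and 4 resistant tumours labelled as 120 days. The name and dose of the drug, the strain and genotype of the mice, their age and the driver of the tumours are not given in the sources used here. Titles of the untreated, 60-day and resistant tumours carry codes that several tumours share, while the 4-day tumours have a code series of their own. No code occurs in different groups, so differences between codes and between groups cannot be told apart. The meaning of these codes is not given, so tumours that share a code may not be independent. The p-values therefore measure the spread between these samples only. Tumour RNA was labelled with Cy5 and a universal mouse reference RNA with Cy3 on every array, and each value is the log2 ratio of Cy5 over Cy3. A ratio compares one gene between tumours and does not rank genes against each other. Arrays lay on 2 slides, with replicates 3 and 4 of every group on slide 1 and replicates 1 and 2 on slide 2. In the 60-day and resistant groups the title codes follow the slides. Between 49.0% and 54.2% of all probes were above background in Cy5 on an array. Resistant replicate 1 stood apart, with a median correlation of 0.698 with the other arrays across genes, against 0.836 to 0.916 for the rest. All 12 melanocyte markers, among them Dct, Mlana and Sox10, passed the filter.

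The respiratory chain passes electrons from NADH dehydrogenase (complex I) and cytochrome bc1 (complex III) to cytochrome c oxidase (complex IV), pumping protons that drive ATP synthase. Most subunits are encoded in the nucleus and the rest in the mitochondrial genome, and several complex IV subunits have tissue isoforms, with heart and skeletal muscle forms that differ from the form made in most other cells. Ppargc1a encodes PGC-1alpha, a coactivator of genes for mitochondrial biogenesis, and in melanoma cells it is a known target of the melanocyte transcription factor MITF, which has been linked to oxidative metabolism under BRAF inhibition.

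Promoter sequences of RefSeq (build GRCm38.p6, 250 bases before to 50 after a gene's start) were found for 74 of the 90 members. The core of the NRF1 site (CGCATGCG), a factor known for nuclear-encoded mitochondrial genes, was present on either strand in 11 of 74 member promoters (14.9%), against 2.07% of the promoters of 27025 genes. The 11 include Cox6a1, Ndufa8, Uqcrc1 and Atp5l. The GABPA site (CCGGAAGT) was found in 6.76% of member promoters and 4.31% of all, and the site of the estrogen-related receptors (TCAAGGTCA) in 1.35% and 0.466%, where the member is Atp5g3. The E-boxes CACGTG and CATGTG, which MITF is known to bind, were found in 9.46% and 10.8% of member promoters and in 8.09% and 15.9% of all. These shares are exact letter matches and are not tested. Median GC content was 57.3% in member promoters and 52.7% in all. The 250 bases before the start are given for Ppargc1a, for Cox6a1 and for the muscle isoforms Cox7a1 and Cox8b, because these members carry the patterns below. Capitals mark a motif match. Ppargc1a (chr5:51567726-51567975, minus strand) holds a CATGTG E-box on the reverse strand that begins 160 bases before the start. Cox6a1 (chr5:115348959-115349208, minus strand) holds an NRF1 core that begins 161 bases before it. No searched motif was in the windows of Cox7a1 (chr7:30183921-30184170, plus strand) or Cox8b (chr7:140900447-140900696, minus strand).
Ppargc1a: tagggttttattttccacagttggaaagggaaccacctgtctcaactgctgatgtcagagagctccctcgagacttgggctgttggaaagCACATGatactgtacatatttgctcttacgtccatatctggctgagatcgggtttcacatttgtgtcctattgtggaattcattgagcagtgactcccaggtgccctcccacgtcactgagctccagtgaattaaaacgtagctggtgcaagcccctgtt
Cox6a1: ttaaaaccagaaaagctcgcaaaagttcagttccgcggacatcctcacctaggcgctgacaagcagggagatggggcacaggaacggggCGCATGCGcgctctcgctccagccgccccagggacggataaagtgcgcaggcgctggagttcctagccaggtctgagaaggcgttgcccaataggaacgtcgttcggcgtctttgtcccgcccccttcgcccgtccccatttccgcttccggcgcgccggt
Cox7a1: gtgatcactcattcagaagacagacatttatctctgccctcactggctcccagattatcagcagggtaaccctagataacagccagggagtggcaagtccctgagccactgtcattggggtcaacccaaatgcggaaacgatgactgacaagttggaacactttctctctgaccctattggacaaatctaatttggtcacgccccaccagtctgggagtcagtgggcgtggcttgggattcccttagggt
Cox8b: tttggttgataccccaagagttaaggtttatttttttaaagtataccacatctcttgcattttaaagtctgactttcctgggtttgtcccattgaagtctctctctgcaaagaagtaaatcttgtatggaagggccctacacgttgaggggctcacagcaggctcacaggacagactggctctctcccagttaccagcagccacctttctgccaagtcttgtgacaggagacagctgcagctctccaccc

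No member passed the limma test at an adjusted p of 0.05 in any of the 6 comparisons between groups. Set against untreated tumours, 295 genes (1.34%) were called in 4-day tumours, 180 (0.819%) in 60-day tumours and 4 (0.0182%) in resistant tumours. Resistant tumours differed from 4-day tumours in 1 gene (0.00455%), while 0 genes (0%) were called between resistant and 60-day tumours and 0 (0%) between 60-day and 4-day tumours. The members' count of 0 of 88 lies near these low shares.

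Without adjustment, 5 members had p under 0.05 at 4 days, against 16.7% of all genes. Atp5d, Atp5sl, Ndufs7 and Ppargc1a were higher and Ndufaf2 was lower. At 60 days 5 members had p under 0.05, against 18.7% of all genes, with Atp5d, Atp5sl, Ndufaf3 and Ppargc1a higher and Ndufaf2 lower. In resistant tumours it was 1 member, Ndufb9, against 9.52% of all genes. Between the treated groups, it was 1 member (Ndufb6) for resistant against 4-day tumours, with 8.19% of all genes. It was 0 members for resistant against 60-day tumours (5.67% of all genes) and 0 for 60-day against 4-day tumours (1.87%).

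Groups without overlap gave a like picture. Values of 4-day and untreated tumours did not overlap for 1 member (Ndufaf2), against 7% of all genes. For 60-day tumours this held for 4 members (Atp5d, Ndufaf2, Ndufaf3 and Ppargc1a), against 13.8% of all genes, and for resistant tumours for 3 (Atp5d, Cox6b2 and Ndufaf2), against 4.28%. It held for 0 members between resistant and 4-day tumours (2.77% of all genes), between resistant and 60-day tumours (3.63%) and between 60-day and 4-day tumours (1.68%). The 3 comparisons with untreated tumours share those 4 arrays, so a member with tight untreated values can recur in them.

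The median member difference from untreated tumours was -0.01 at 4 days, 0.02 at 60 days and 0.04 in resistant tumours on the log2 scale, where the median of all genes was -0.01, 0.00 and 0.01. Members were higher than untreated in 43, 49 and 57 of 88 cases (48.9%, 55.7% and 64.8%), against 48.7%, 50.2% and 52.2% of all genes. By complex, the median lay between -0.03 and 0.10 in these comparisons. Complex I (45 members) had medians of -0.02, 0.02 and 0.07, complex III (8 members) 0.05, 0.10 and 0.07, complex IV (16 members) 0.03, -0.01 and 0.08, and complex V (18 members) -0.03, 0.00 and -0.01. The 95% intervals of limma lay within a 2-fold change in either direction for 84 of 88 members at 4 days, 84 at 60 days and 85 in resistant tumours. For all genes the shares were 78.3%, 77.7% and 81.6%. All 69 core subunits were within 2-fold in each of the 6 comparisons. The number of arrays limits the precision for smaller differences.

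**Figure D1:**
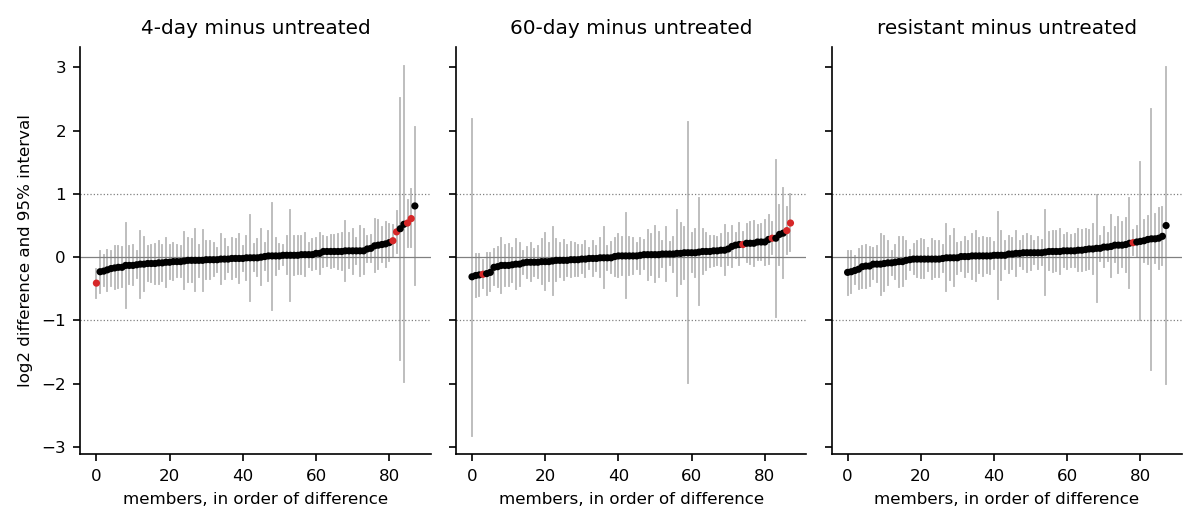
Log2 difference from untreated tumours (points) with its 95% limma interval (bars) for the 88 members tested, ordered by size within each panel, with dotted lines at 2-fold. Red points have an unadjusted p under 0.05 and number 5, 5 and 1, and the widest intervals belong to Cox6a2 and Cox8b.

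Within groups, members also varied little. The median SD between tumours of one group was 0.195 for members, 0.267 for all genes and 0.266 for genes of like brightness. The median of all members on an array ranged from -0.17 to -0.07 in untreated, -0.25 to 0.00 in 4-day, -0.15 to -0.04 in 60-day and -0.16 to -0.01 in resistant tumours. These ranges overlap for every pair of groups. Pairs of core subunits of the same complex had a median correlation of 0.12 over the 16 tumours and pairs from different complexes 0.17, against 0 for all gene pairs. This is a description over arrays that share slides and groups.

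**Figure D2:**
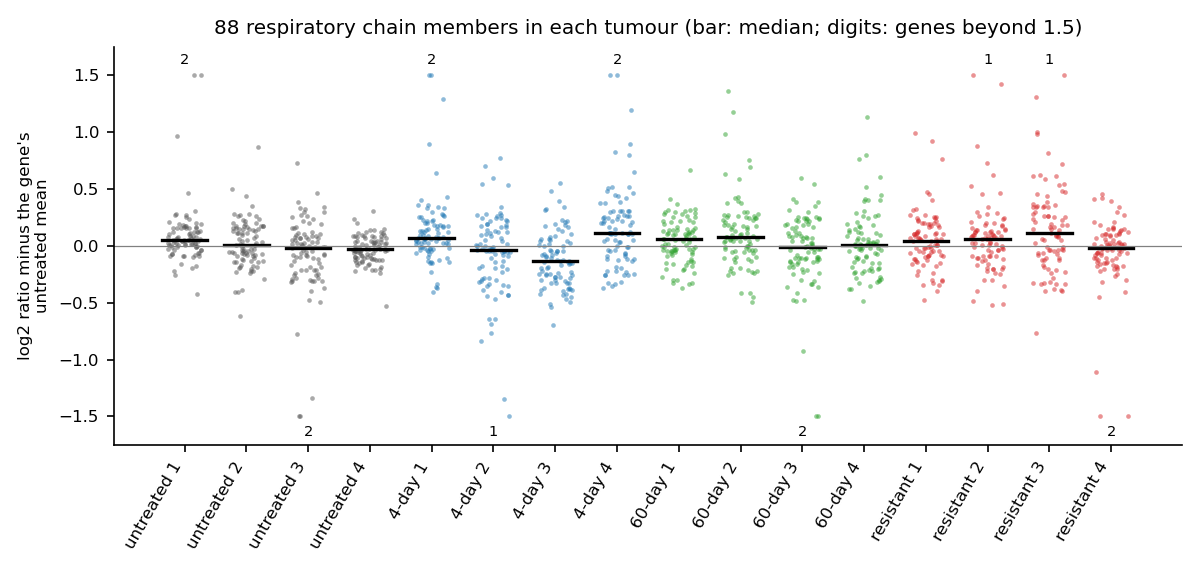
Log2 ratio of each of the 88 members minus that gene's untreated mean, in each of the 16 tumours, with the median as a bar and the number of genes beyond 1.5 printed at the edge. The medians lie between -0.14 and 0.12 in all tumours.

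Ppargc1a, the regulator of the set, was measured by a probe at chr5:51848928-51848987 (mm9). The probe was above background on all 16 arrays but dim. Its mean log2 intensity was 7.74, against medians of 13.5 for members and 8.86 for all genes tested. Its log2 ratio was -1.09, -1.0, -0.93 and -1.11 in untreated tumours, and -0.14, -0.43, -0.97 and -0.13 in 4-day tumours. It was -0.70, -0.34, -0.65 and -0.26 in 60-day tumours and -0.84, -0.30, -0.41 and -1.23 in resistant tumours. All 60-day values lay above all untreated values, whereas 4-day replicate 3 and resistant replicate 4 lay within or below the untreated range. The difference from untreated tumours was 0.61 ± 0.21 (SE) at 4 days (limma adjusted p = 0.172, exact two-sided permutation p = 0.0571). At 60 days it was 0.54 ± 0.21 (limma adjusted p = 0.194, exact two-sided permutation p = 0.0286, the smallest that 4 against 4 allows). Groups that do not overlap always reach this smallest value, and 13.8% of all genes did not overlap at 60 days. The permutation p-values are not adjusted for the number of genes. In resistant tumours the difference was 0.33 ± 0.21 (limma adjusted p = 0.665, exact two-sided permutation p = 0.229). The 4-day difference was 0.47 on slide 1 and 0.76 on slide 2, and the 60-day difference 0.56 and 0.52. Resistant and 4-day tumours differed by -0.28 ± 0.21 (limma adjusted p = 0.814), so a return towards the untreated level was not resolved. With the signals processed by Feature Extraction the difference from untreated tumours was 1.08 at 4 days and 1.04 at 60 days, and in the deposited values it was 1.06 and 1.01, with limma adjusted p from 0.205 to 0.232.

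The E-box factor gene Mitf was the only one of the 12 melanocyte markers called at 4 days, at 0.88 ± 0.20 (limma adjusted p = 0.0459). Its log2 ratio was 1.41, 0.98, 1.27 and 1.51 in 4-day tumours and 0.70, 0.17, 0.56 and 0.23 in untreated tumours. Over the 16 tumours Ppargc1a and the mean of the melanocyte markers had r = 0.76, and r = 0.74 on slide 1 and 0.83 on slide 2 with 8 tumours each. Ppargc1a also had r = 0.58 with brown fat markers (0.39 and 0.74 within slides 1 and 2), 0.47 with adipocyte markers (0.61 and 0.42), -0.49 with fibroblast markers (-0.63 and -0.74) and -0.39 with immune markers (-0.64 and -0.43). With skeletal muscle markers Ppargc1a had r = 0.36 (0.5 and 0.02), and with endothelial markers 0.04 (-0.16 and -0.03). Its correlation with keratinocyte and hair follicle markers was not computed. Means of those markers ran from 3.12 to 4.87 in untreated, 4.57 to 5.6 in 4-day, 4.96 to 5.5 in 60-day and 2.28 to 5.34 in resistant tumours. Melanocyte marker means ran from 1.32 to 1.62 in untreated, 1.56 to 2.97 in 4-day, 2.00 to 2.81 in 60-day and 1.10 to 2.55 in resistant tumours. The part of any of these cell types in the Ppargc1a values was not tested. In bulk tumour RNA, fewer cells of a type and less RNA per cell cannot be told apart.

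**Figure D3:**
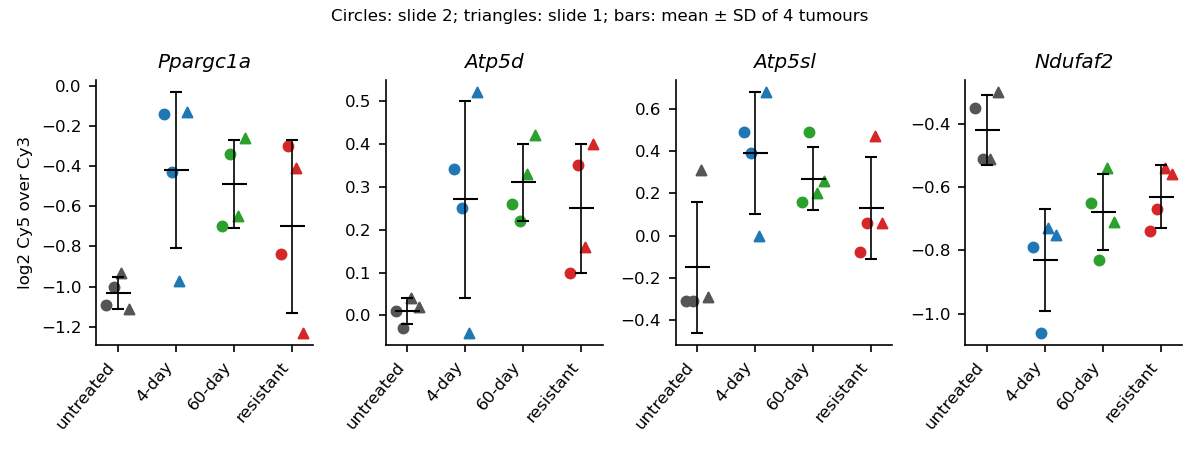
Log2 Cy5 over Cy3 of Ppargc1a, Atp5d, Atp5sl and Ndufaf2 in each tumour, with circles for slide 2, triangles for slide 1 and bars for mean ± SD of 4 tumours. Untreated Ppargc1a values sit between -1.11 and -0.93, and 4-day replicate 3 (-0.97) lies among them.

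Among complex I members, the assembly factor Ndufaf2 had the smallest adjusted p. Its log2 ratio was -0.35, -0.51, -0.51 and -0.30 in untreated tumours and -0.79, -1.06, -0.73 and -0.75 in 4-day tumours. It was -0.65, -0.83, -0.54 and -0.71 in 60-day tumours and -0.74, -0.67, -0.54 and -0.56 in resistant tumours. Every treated value lay below every untreated value. The differences from untreated were -0.41 ± 0.10 at 4 days (limma adjusted p = 0.0686), -0.27 ± 0.10 at 60 days (0.199) and -0.21 ± 0.10 in resistant tumours (0.553). With the slide as a block in the model the 4-day difference passed, at -0.41 (limma adjusted p = 0.03). The other 6 assembly factors named Ndufaf had 4-day differences from -0.23 (Ndufaf7) to 0.10 (Ndufaf3), and 6 of the 7 were lower than untreated. Ndufs7, an iron-sulphur subunit of complex I, had a 4-day difference of 0.40 ± 0.15 (limma adjusted p = 0.219), with -0.40, 0.27, -0.29 and 0.01 in 4-day tumours against -0.45, -0.64, -0.54 and -0.38 in untreated tumours. Ndufb6, an accessory subunit, differed by 0.28 ± 0.10 between resistant and 4-day tumours (limma adjusted p = 0.544), and Ndufs7 by -0.29 ± 0.15 (0.666). Ndufb8 had the smallest group differences of complex I, from 0.02 to 0.03 against untreated.

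In complex III, the core proteins Uqcrc1 and Uqcrc2 and the Rieske protein Uqcrfs1 varied most between groups. Uqcrc1 differed from untreated by 0.19 ± 0.18 at 4 days, 0.28 ± 0.18 at 60 days and 0.29 ± 0.18 in resistant tumours, with no adjusted p under 0.428. Uqcrb, a small accessory subunit, differed by -0.01, 0.03 and -0.03.

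In complex V, Atp5d, the delta subunit of the F1 rotor stalk, lay at 0.01, -0.03, 0.04 and 0.02 in untreated tumours. It lay at 0.34, 0.25, -0.04 and 0.52 in 4-day, 0.26, 0.22, 0.33 and 0.42 in 60-day and 0.10, 0.35, 0.16 and 0.40 in resistant tumours. Only 4-day replicate 3 of the treated tumours was not above the untreated range. The differences were 0.26 ± 0.12 (limma adjusted p = 0.276), 0.30 ± 0.12 (0.191) and 0.24 ± 0.12 (0.533). Atp5sl is placed here by its name only and is not a core subunit of ATP synthase. It differed from untreated by 0.54 ± 0.18 at 4 days (limma adjusted p = 0.152), where untreated replicate 3, at 0.31, stood above the other untreated tumours (-0.31 to -0.29). Without that tumour the difference was 0.69 (limma adjusted p = 0.0391). The c-ring subunit gene Atp5g3 differed by -0.22 ± 0.11 (limma adjusted p = 0.361).

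Complex IV held the members that varied most, the muscle isoforms Cox6a2, Cox7a1 and Cox8b. Cox6a2 lay at 1.27, 0.03, -2.87 and -0.32 in untreated, 1.31, -2.17, -0.13 and 1.19 in 4-day, -0.63, 0.71, -3.88 and 0.66 in 60-day and 0.52, 1.06, 1.04 and -2.52 in resistant tumours. Cox8b lay at 5.09, 4.41, 1.27 and 3.42 in untreated, 5.46, 2.20, 3.60 and 4.75 in 4-day, 3.84, 4.91, 1.58 and 4.16 in 60-day and 4.31, 4.97, 4.37 and 1.70 in resistant tumours. The low tumours were the same for both, namely untreated replicate 3, 4-day replicate 2, 60-day replicate 3 and resistant replicate 4, so each group held 1. Cox7a1 was also lowest in these 4 tumours, between -1.65 and -0.45, against -0.23 to 1.21 in the other 12.

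The mean of 20 skeletal muscle markers, all measured, was low in the same tumours, at 0.57, 1.07, -0.04 and 1.03, and lay between 2.18 and 3.17 in the other 12. The actin gene Acta1 was at -0.32, 0.01, -1.18 and 0.66 in the 4. Within the other 12 tumours, the marker mean correlated with Cox6a2 (r = 0.97, and 0.94 over 10 tumours without the 2 farthest), Cox8b (0.91 and 0.89) and Cox7a1 (0.71 and 0.58). The partner isoforms made in most cells had r = 0.13 (Cox6a1), 0.18 (Cox7a2) and 0.10 (Cox8a). Over these 12 tumours 15.9% of members, Ppargc1a among them, and 5.91% of all genes had r over 0.5. The division at a marker mean of 2 was set after the values were seen. Over all 16 tumours, adipocyte markers had r = 0.48 with Cox6a2, 0.61 with Cox7a1 and 0.53 with Cox8b. Within slides 1 and 2 these were 0.44 and 0.77, 0.65 and 0.97, and 0.55 and 0.83. Muscle markers had r = 0.99, 0.9 and 0.97 over the same 16 tumours, with 0.93 and 0.79 within slides for Cox7a1. Group differences of Cox6a2 were 0.52 ± 1.17, -0.31 ± 1.17 and 0.50 ± 1.17 against untreated, well within the spread. Cox7a1 differed by 0.81, 0.3 and 0.25, where the SD between tumours of a group was 0.902, and Cox8b by 0.45, 0.07 and 0.29. Of the 20 muscle markers 19, 7 and 15 were higher than untreated, with medians of 0.24, -0.09 and 0.28 and 0 called. The part of muscle or fat in the isoform values was not tested.

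The isoforms were read by different probes. The 60-base probes of Cox6a1 and Cox6a2 share at most 19 bases in ungapped alignments with at least 30 overlapping bases, and no run longer than 4. Those of Cox8a and Cox8b share 20 and 6. Each probe was compared with the partner's probe and not with the partner's transcript, so binding to the other isoform was not tested. The opening 30 bases of each are given because the pairs diverge so widely in their values, with probes at chr5:115795726-115795785 (Cox6a1), chr7:135349160-135349219 (Cox6a2), chr19:7289652-7289708 (Cox8a) and chr7:148084852-148084911 (Cox8b), all mm9 and on the minus strand.
Cox6a1: ggaccacgaaaaccctttggatgctaagct
Cox6a2: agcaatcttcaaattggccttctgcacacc
Cox8a: tattggctctgcttggtggggtcccccttt
Cox8b: ctataaaaagagctccgcagcatgaagttg

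**Figure D4:**
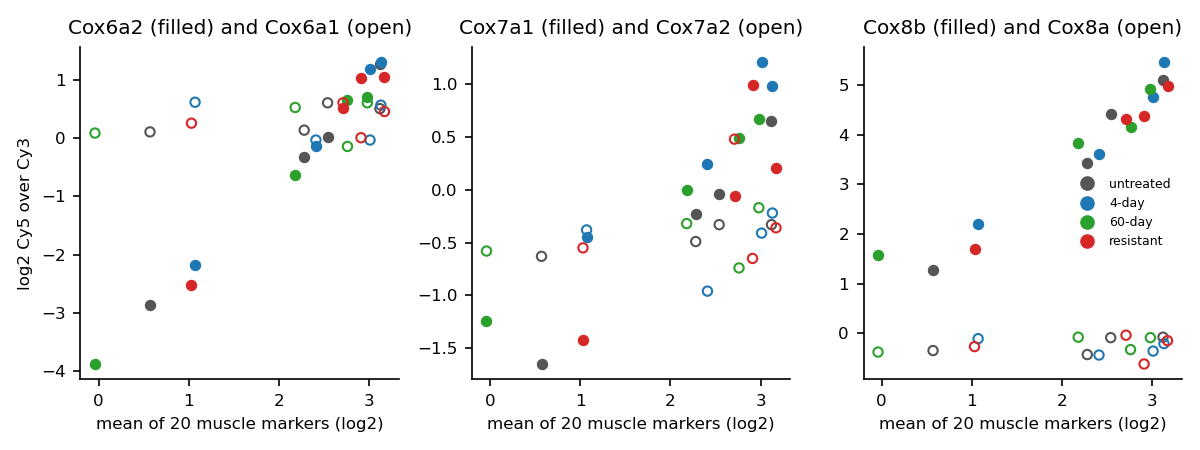
Log2 Cy5 over Cy3 of each muscle isoform (filled) and its partner (open) against the mean log2 ratio of 20 muscle markers, 1 point a tumour, coloured by group. The 4 tumours with a marker mean of 1.07 or less hold the lowest muscle isoform values, and the partners show no such drop.

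The other isoform pairs of complex IV did not split in this way. Cox4i2, a lung isoform known to respond to low oxygen, differed from untreated by 0.18, 0.05 and 0.20 (SE 0.20), and its partner Cox4i1 by 0.09, -0.04 and 0.07. Cox6b2, known as a testis isoform, was above background on all 16 arrays. It lay at 0.74, 1.06, 0.96 and 0.97 in untreated and 0.59, 0.73, 0.72 and 0.71 in resistant tumours, a difference of -0.24 ± 0.16 (limma adjusted p = 0.683) although the groups did not overlap. The somatic Cox6b1 differed by 0.13 ± 0.14. Of 6 testis markers, 3 (Ldhc, Ddx4 and Dazl) did not pass the filter and 3 (Tnp1, Prm1 and Prm2) did. The median differences of those that passed were 0.02, 0.11 and 0.05 against untreated, with 0 called. Ndufa4l2, a hypoxia-inducible paralog of Ndufa4, had ratios of 2.01 to 3.58 and differed from untreated by 0.03, 0.38 and 0.22 (SE 0.33).

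With the processing used here, more members differed between the slides than between any groups. The slide comparison sets 8 arrays against 8 and each group comparison 4 against 4, so the counts come from tests of unequal power. The slides were examined after Ndufa4, named for complex I and now placed in complex IV, was seen to divide by slide. Ndufa4 lay between 0.42 and 1.24 in the 8 tumours of slide 1 and between -0.52 and 0.10 in the 8 of slide 2, a difference of -0.95 ± 0.13 for slide 2 minus slide 1 (limma adjusted p = 0.000279). Cox6a1 went the other way, from -0.14 to 0.26 on slide 1 and 0.46 to 0.62 on slide 2 (0.52 ± 0.06, limma adjusted p = 0.000132), as did Ndufa5 (0.50 ± 0.06, 0.000168). Between slides, 40 of 88 members differed (45.5%), with 27 higher and 13 lower on slide 2, and 28.4% of all genes did. The balance of directions rests on the normalization. With median centring in place of loess, 75 members differed, with 0 higher and 75 lower on slide 2, against 67.5% of all genes, and 30 of the 40 were among them. The tumours on the 2 slides are different tumours.

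The Cy3 channel held the same reference RNA throughout. In Cy3 alone, quantile normalized between arrays, 56 members differed between slides, against 48% of all genes. Of these, 32 were among the 40, and all 32 had the opposite sign to the ratio. Cy3 is the denominator of the ratio, so a shift in Cy3 enters it with the opposite sign. The opposite signs are therefore largely built in. In Cy5 alone 4 members differed (Atp5c1, Atp5l, Ndufa4 and Ndufv3), against 7.7% of all genes. Ndufa5 differed by -0.44 in Cy3 alone (limma adjusted p = 4.18e-07) and by 0.08 in Cy5 alone (0.517), and Ndufa4 by 0.26 in Cy3 (1.76e-05) and -0.65 in Cy5 (0.00724). Each group had 2 arrays on each slide, so the slide is balanced over the groups but not over pairs of tumours. The correlation of Cox4i2 with 6 endothelial markers was 0.69 over all tumours and 0.37 and 0.44 within slides 1 and 2, and that of Ndufa4 was -0.79 over all and -0.85 and -0.05 within them.

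**Figure D5:**
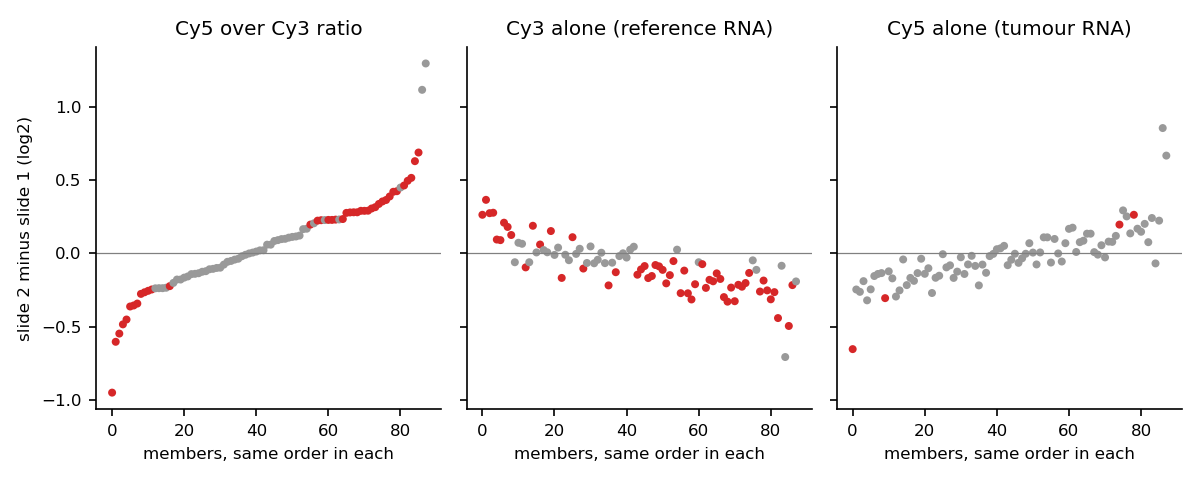
Slide 2 minus slide 1 (log2) for the 88 members in the ratio, in Cy3 alone and in Cy5 alone, ordered by the ratio, with members at a limma adjusted p under 0.05 in red. Red members number 40, 56 and 4, and the 32 that are red in both the ratio and Cy3 alone have opposite signs there. This is largely built in, because Cy3 is the denominator of the ratio.

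Other lists of the pathway are given by their own counts, with no test against the members. Of 13 genes of complex II, cytochrome c and carriers, 0 were called in either direction in any comparison with untreated tumours, and the medians were 0.08, 0.01 and 0.08. The ADP/ATP carrier Slc25a4 differed by -0.19, -0.51 and -0.22 and the ATPase inhibitor Atpif1 by 0.08, 0.01 and -0.13. Of 34 respiratory chain assembly factors 32 were tested and 0 called, with medians of -0.08, 0.05 and 0.03, where the brightest 2, Cox14 and Uqcc2, differed by -0.02, 0.10 and 0.13 and by -0.03, 0.12 and 0.05. The largest differences of that list, picked after the values were seen, were those of Acad9, an assembly factor of complex I, at 1.05, 1.48 and 0.82 (SE 0.52, limma adjusted p = 0.33, 0.158 and 0.663). Acad9 lay at 0.31, 0.01, 1.73 and 0.23 in untreated tumours and between 0.91 and 2.5 in 4-day and 60-day tumours, and at -0.42 in resistant replicate 1 against 1.55 to 2.28 in the other resistant tumours. Surf1, a complex IV assembly factor, differed by 0.35, 0.45 and 0.19, and Ttc19, of complex III, by -0.37, -0.33 and -0.16. Of 19 regulators of mitochondrial biogenesis 17 were tested and 0 called. Esrra, the nuclear receptor ERRalpha that PGC-1alpha is known to coactivate, differed by 0.46, 0.39 and 0.34 (limma adjusted p = 0.093, 0.135 and 0.386), and Ppard by -0.03, 0.00 and 0.13. Of 17 genes of the TCA cycle and pyruvate dehydrogenase 0 were called, with Mdh2 at -0.13, 0.00 and -0.01 and Cs, citrate synthase, at 0.19, 0.26 and 0.09. Of 20 glycolysis genes 0 were called. Their medians were -0.09, 0.03 and 0.24, and 19 of 20 were higher in resistant than in untreated tumours, among them Aldoa at 0.17 and Gapdh at 0.15. The glycolysis median in resistant tumours was 0.22 to 0.25 under 6 other normalizations, whereas median centring gave 0.04 at 4 days and 0.25 at 60 days.

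The 13 subunits encoded in the mitochondrial genome, a list added after the gene names of the array were seen, were measured as well, and 0 were called. Their median difference was -0.11 at 4 days (1 of 13 higher), 0.13 at 60 days (10 higher) and 0.14 in resistant tumours (12 higher). Their mean per tumour ran from -1.19 to 0.46 in untreated tumours alone, which spans the range of -0.77 to 0.24 of all treated tumours. COX1, the catalytic subunit of complex IV, differed by -0.38, -0.20 and -0.68, and COX2 by -0.03, 0.13 and 0.24.

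Markers of other cells are given beside these results, and their part was not tested. Adipocyte markers (11 of 11 tested) were higher than untreated in 10 at 4 days, 10 at 60 days and 4 in resistant tumours (7 with median centring), with 0 called. Of 8 brown fat markers 6 were tested, and 5, 4 and 5 were higher than untreated, with medians of 0.51, 0.45 and 0.43 and 0 called. Elovl3 differed by 1.71, 2.00 and 1.10 (limma adjusted p = 0.28, 0.188 and 0.708) and Cidea by 1.29, 1.62 and 0.50 (0.498, 0.329 and 0.912), and both were lowest in resistant replicate 1. Both lay above the list's medians in each comparison, so they do not stand for the list. Resistant replicate 1 also had the lowest mean of keratinocyte and hair follicle markers, at 2.28. Ucp1, which defines brown fat, did not pass the filter, so the list does not show that brown fat was present. Keratinocyte and hair follicle markers were higher in 12 of 12 at 4 and at 60 days and in 11 in resistant tumours, and immune markers in 1, 2 and 4 of 10, with 0 called in either list. Fibroblast markers were higher in 2, 3 and 3 of 8 and endothelial markers in 4, 5 and 6 of 6 (2, 3 and 5 with Cy5 alone), with 0 called.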

How the data were processed

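Per the file headers, the spots of 16 2-colour Agilent arrays were read by Agilent Feature Extraction 10.7.3.1 as mean and background intensity, with a log10 ratio of Cy5 over Cy3 and other columns of flags. The deposited value table holds log2 ratios and served as an alternative. Here, with limma 3.58.1 in R 4.3.3, background was removed by normexp (offset 50), ratios were normalized by loess within arrays, control and outlier-flagged spots were dropped, and spots were averaged to probes. Probes above background in Cy5 on at least 4 arrays were kept, with the brightest per gene. The 4 groups entered 1 model, and p-values were adjusted by Benjamini-Hochberg over 21985 genes in each of 6 comparisons. Scripts were tested on simulated data. Positions of probes are those of the array design (mm9). Named members were Ppargc1a, in each complex the 3 with the largest F and the smallest, and isoform pairs, with Ndufaf3, Ndufb9 and the slide examples chosen after their values were seen. Members and lists were chosen with earlier results of these data known. Alternatives covered slide, normalization, background, filter, probes, samples in the model, array weights and single tumours. The slide comparison was added after the values were seen.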

Additional observations from a re-analysis of the deposited data

Results flagged for a closer look

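Among 28 named members, 112 groups of 4 tumours were examined for 1 tumour far from the other 3, and 5 were found, where chance gives about 5.6. Atp5sl was 0.31 in untreated replicate 3 and -0.31 to -0.29 in the others. Cox6a2 was -2.52 in resistant replicate 4, which was also low in muscle markers, and 0.52 to 1.06 in the others. Cox7a2l was 0.03 in 4-day replicate 1, against 0.41 to 0.46. Ndufb8 was -0.52 in resistant replicate 3, against -0.98 to -0.90. Cox6b2 was 0.59 in resistant replicate 1, the array with the lowest correlation with the rest, against 0.71 to 0.73.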

How the results depend on the processing

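The absence of called members held under most settings. At 4 days 1 member passed with the slide as a block, with Cy5 alone, without resistant replicate 1 (Ndufaf2 in each) and without untreated replicate 3 (Atp5sl), and 4 passed with array weights. Over all genes the first 4 of these settings called 645, 427, 702 and 679, against 295 with the processing used here. At 60 days 1 member passed (Ppargc1a) in a model of those groups alone and 7 with array weights. That model called 1258 of all genes, against 180 with the processing used here. Leaving out single tumours gave member counts from 0 to 1 at 4 days. Array weights raised calls over all genes too, to 3953 and 4832. The median member difference moved with median centring in place of loess, to 0.088 at 4 days, 0.198 at 60 days, -0.07 for resistant minus 4-day and -0.161 for resistant minus 60-day. Ppargc1a passed with array weights (0.77 at 4 days, 0.57 at 60 days) and in a model of the groups alone (0.54 at 60 days). It was 1.08 and 1.04 with Feature Extraction processed signals and 1.06 and 1.01 in the deposited table, and did not pass there. Leaving out single tumours gave 0.52 to 0.80 at 4 days, 0.47 to 0.61 at 60 days and 0.20 to 0.51 in resistant tumours. Its difference between 60-day and 4-day tumours turned from slightly negative to 0.10 on slide 1 alone, and ranged from -0.25 to 0.02 when single tumours were left out, where it was 0.00 to 0.02 without 4-day replicate 1, 4-day replicate 4 or 60-day replicate 1. The count of members differing between slides was 75 with median centring, all lower on slide 2 where 27 of 40 were higher with loess, and 4 with Cy5 alone, and 32 to 44 without single tumours. Of 10 other differences with an unadjusted p under 0.05, none of 300 values under other settings changed sign and 11 passed. Another 164 differences of named members had no such p and were treated as values without a direction. Of their 4902 values 444 changed sign, 40 moved by more than the spread between tumours and none passed. The cause of these changes was not tested.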
